A study of Mus musculus with 6 samples.

Results

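Collagen genes were taken as every gene whose symbol consists of Col, a number, the letter a and a second number, which gave 44 of the 21829 genes in the deposited table. Of these, 11 encode chains of fibrillar collagens, 6 the type IV chains of basement membranes, 6 the type VI chains and 21 chains of other types. RNA was sequenced from epididymal white adipose tissue (eWAT), a visceral fat depot of the male mouse. All donors were C57BL/6J males, 20 weeks old and fed a normal diet. There were 3 libraries from wild-type littermates (WT 1, WT 2 and WT 3) and 3 from mice labelled ZFP251 KO (KO 1, KO 2 and KO 3), and the design asks what this zinc finger protein does in the tissue. The sources used here do not give how the knockout was made or in which cells it acts. Whether each library came from its own mouse is not stated, and the p-values then cover only the spread between libraries, which may be technical.

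Each collagen gene encodes an alpha chain, and chains wind together into a helix built on a repeat with glycine at every turn. Fibrillar collagens form the ropes of the interstitial matrix. Type IV collagen forms the sheet-like network of basement membranes, and type VI forms beaded filaments that link both. In fat, fibroblasts and progenitor cells make much of the fibrillar collagen, while every adipocyte and capillary is wrapped in a type IV basement membrane. The matrix is remodelled when fat cells enlarge.

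Values are FPKM, fragment numbers scaled by transcript length and by the library's total, and differences are given on the log2(FPKM + 1) scale as the libraries labelled KO minus WT. This scale understates the change of low genes. The targeted gene went against the labels. Zfp251 stood at 6.48, 5.86 and 6.48 FPKM in the libraries labelled KO, above the 3.73, 3.56 and 2.95 FPKM of WT (exact permutation test, two-sided, p = 0.1, the smallest that 3 libraries against 3 allow). Directions below follow these labels. The fat cell hormone gene Adipoq stood between 2097 and 5889 FPKM in all 6 libraries, so the labelled tissue was present. A pair of libraries stood apart within WT. WT 1 carried markers of epithelium, which WT 2 and WT 3 nearly lacked, and WT 3 had low values for long transcripts. The results are given with and without these libraries where they turn on them.

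The collagen message of this fat was dominated by a few chains. Col3a1, which encodes the single chain of type III, had the highest mean over the 6 libraries, 387.9 FPKM. Next came the type IV chain gene Col4a1 (242.8 FPKM) and the type I chain gene Col1a2 (166.1 FPKM). Col4a2, Col6a1, Col15a1, Col6a2, Col1a1 and Col5a3 followed, with means from 124 down to 67.5 FPKM. FPKM is scaled by length, so these levels can be compared between genes. Of the 44 genes, 27 had a mean of at least 1 FPKM and were tested, 7 fibrillar, 6 basement membrane, 5 type VI and 9 other. Among the 27, Col4a3 and Col12a1 had a WT mean under 1 FPKM and passed through the libraries labelled KO. The other 17 genes had at most 0.794 FPKM in any library.

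Fibrillar chains made up the largest share of the summed collagen FPKM, between 42.3% and 51.4% per library. Basement membrane chains made up 20.8% to 26.7%, type VI chains 15.7% to 17.2% and all other chains 9.15% to 14.6%. The amount of collagen message varied more, in ratio, than the share of any class. The summed collagen FPKM was 1945, 1833 and 950.4 in WT 1, WT 2 and WT 3, and 1292, 1388 and 2082 in KO 1, KO 2 and KO 3. The lowest library was a WT and the highest a KO library, and the groups overlapped. The mean was 1576 ± 545 FPKM in WT and 1587 ± 431 FPKM in the libraries labelled KO (SD, n = 3). Without WT 3 the WT mean was 1889 FPKM, and the ratio of KO to WT went from 1.01 to 0.84. As a share of all FPKM, collagen took 0.412%, 0.391% and 0.149% in WT 1 to WT 3 and 0.303%, 0.324% and 0.474% in KO 1, KO 2 and KO 3. In bulk tissue, fewer cells of a type and less RNA per cell cannot be told apart.

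**Figure D1:**
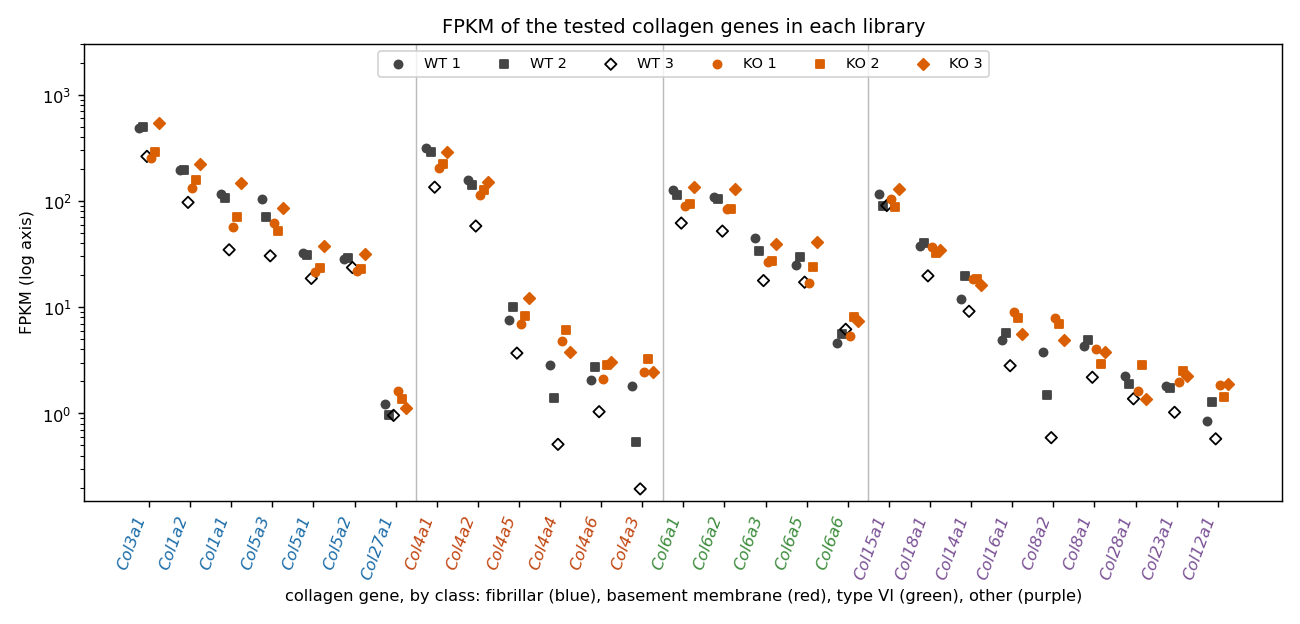
FPKM (log axis) of the 27 tested collagen genes in each of the 6 libraries, by class and by falling mean within a class; black marks are WT, with WT 3 open, and orange marks the libraries labelled KO. WT 3 is the lowest library for 22 of the 27 genes, and KO 3 lies above KO 1 and KO 2 for 16.

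Promoters are shown for the genes the results turn on. Col4a1 and Col4a2 are transcribed away from each other on chromosome 8, and their windows share 78 bases. Col4a4 and Col8a2 are in the set with the largest differences between the groups, and Col1a2 stands for the abundant fibrillar chains. Windows run from 250 bases before to 50 after the RefSeq start (GRCm38.p6, the assembly of mm10). Capitals mark 3 motifs, each searched on both strands and allowed to overlap. They are the CCAAT box (letters CCAAT), the TATA box (letters TATAAA) and the GC box (letters GGGCGG). The Col4a1 window is chr8:11312777-11313076 on the minus strand, Col4a2 chr8:11312555-11312854 on the plus strand and Col4a4 chr1:82586800-82587099 on the minus strand. Col8a2 is chr4:126286544-126286843 and Col1a2 chr6:4505368-4505667, both on the plus strand.
Col4a1: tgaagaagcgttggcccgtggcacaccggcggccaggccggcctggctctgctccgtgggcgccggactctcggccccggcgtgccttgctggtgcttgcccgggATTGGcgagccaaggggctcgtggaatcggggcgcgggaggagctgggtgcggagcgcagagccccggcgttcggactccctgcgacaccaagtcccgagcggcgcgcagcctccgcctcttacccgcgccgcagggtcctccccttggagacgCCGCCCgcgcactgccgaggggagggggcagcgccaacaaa
Col4a2: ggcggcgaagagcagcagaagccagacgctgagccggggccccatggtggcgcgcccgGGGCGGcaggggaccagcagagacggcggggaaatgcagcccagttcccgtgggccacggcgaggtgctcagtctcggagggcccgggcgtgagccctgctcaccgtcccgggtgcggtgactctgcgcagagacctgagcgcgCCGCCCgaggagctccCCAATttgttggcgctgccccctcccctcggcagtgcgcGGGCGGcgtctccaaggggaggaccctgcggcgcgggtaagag
Col4a4: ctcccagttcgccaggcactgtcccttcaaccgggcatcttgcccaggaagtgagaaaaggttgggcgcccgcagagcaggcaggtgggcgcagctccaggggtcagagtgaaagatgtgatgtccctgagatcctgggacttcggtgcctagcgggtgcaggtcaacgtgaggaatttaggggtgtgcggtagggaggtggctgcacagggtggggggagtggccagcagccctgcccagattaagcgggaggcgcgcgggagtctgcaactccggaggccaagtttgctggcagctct
Col8a2: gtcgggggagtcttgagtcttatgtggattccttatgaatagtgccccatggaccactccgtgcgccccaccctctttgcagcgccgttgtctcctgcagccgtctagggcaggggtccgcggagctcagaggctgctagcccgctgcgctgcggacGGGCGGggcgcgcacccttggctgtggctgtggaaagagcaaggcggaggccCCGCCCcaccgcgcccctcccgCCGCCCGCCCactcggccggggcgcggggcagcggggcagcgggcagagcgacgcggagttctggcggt
Col1a2: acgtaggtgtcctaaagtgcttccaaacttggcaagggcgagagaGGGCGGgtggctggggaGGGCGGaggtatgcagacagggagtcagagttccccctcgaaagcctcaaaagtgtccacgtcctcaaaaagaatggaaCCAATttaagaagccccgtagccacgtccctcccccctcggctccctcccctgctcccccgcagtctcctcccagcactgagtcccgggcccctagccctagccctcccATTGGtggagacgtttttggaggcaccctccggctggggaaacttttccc
Of the 44 genes 35 had such a window. GGGCGG was in 23 of their 38 windows (60.5%) and in 35.7% of all 32851 windows. CCAAT was in 34.2% against 37.4%, and TATAAA in 13.2% against 13.6%. The Col8a2 window held GGGCGG 4 times and the Col4a4 window none of the 3 motifs.

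By class median, WT 3 was the lowest and KO 3 the highest library in fibrillar, basement membrane and type VI chains. The median deviation of a class's genes from their mean over 6 libraries was lowest in WT 3, at -0.49 for fibrillar, -0.95 for basement membrane, -0.69 for type VI and -0.53 for other chains. It was highest in KO 3 for the first 3 classes, at 0.46, 0.35 and 0.42. By summed FPKM, basement membrane chains were highest in WT 1 (488.4 FPKM, against 460.3 FPKM in KO 3), and KO 3 was the highest library for 2 of their 6 genes. KO 1 and KO 2 lay under WT 1 and WT 2 in fibrillar (-0.29 and -0.18 against 0.28 and 0.22) and type VI chains (-0.17 and -0.09 against 0.28 and 0.19). The other chains did not share this order: KO 1 and KO 2 stood highest, at 0.17 and 0.26. Over all 12539 tested genes the same medians lay between -0.03 and 0.06. KO 3 was the highest library for 12 of the 27 collagen genes (44.4%), against 7.17% of all tested genes.

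**Figure D2:**
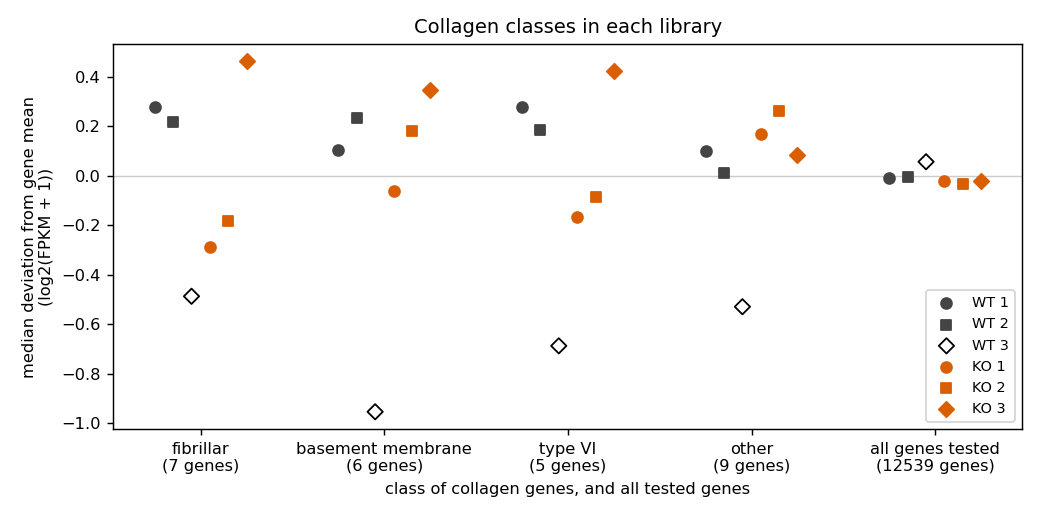
Median deviation of each class of collagen genes from the gene mean (log2(FPKM + 1)) in each library, beside all 12539 tested genes; black marks are WT, with WT 3 open, and orange marks the libraries labelled KO. WT 3 is lowest in every collagen class (-0.49 to -0.95), and KO 3 is highest in fibrillar, basement membrane and type VI chains (0.35 to 0.46).

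Across all 6 libraries no collagen gene passed limma's adjusted threshold of 0.05, and the share called among all tested genes was 0%. At an unadjusted p under 0.05, 5 of the 27 tested collagen genes had higher values in the libraries labelled KO, against 9.13% of all tested genes. None had lower values, against 4.43%. The 5 were Col4a3, Col4a4, Col8a2, Col12a1 and Col16a1. In Col4a3, Col4a4, Col8a2, Col12a1 and Col23a1 every library labelled KO stood above every WT library, which held for 10.1% of all tested genes. For 0 of the 27 did every library labelled KO stand below every WT library, which held for 12.2% of all. Col4a3 and Col12a1, in both sets of higher genes, had WT means of 0.855 and 0.906 FPKM. They passed the filter through the libraries labelled KO, which favours higher over lower values in these counts. By sign, 23 of the 27 had higher and 4 lower group means, with a median log2 difference of 0.15. Over all tested genes 5112 were higher and 7427 lower, with a median of -0.05.

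Leaving out WT 3 turned the sign of 11 of the 27 collagen genes. They were 3 fibrillar, 2 basement membrane, 4 type VI and 2 other genes. Then 12 were higher and 15 lower, with a median of -0.09. Over all tested genes 5271 were higher and 7267 lower without WT 3, with a median of -0.03. No collagen gene passed the adjusted threshold, and the share called among all tested genes was 0%. At an unadjusted p under 0.05, 3 remained higher, Col4a3, Col4a4 and Col8a2 (8.01% of all genes), and 0 were lower (5.67% of all). With WT 1 and WT 2 against the 3 libraries labelled KO, the groups did not overlap in 5 genes with higher values, again Col4a3, Col4a4, Col8a2, Col12a1 and Col23a1, against 14.1% of all genes. They did not overlap in 2 with lower values, Col18a1 and Col8a1, against 17.9% of all. The class medians went from 0.10 to -0.24 in fibrillar, from 0.37 to 0.07 in basement membrane, from 0.13 to -0.14 in type VI and from 0.37 to 0.18 in other chains. Differences between the classes were not tested.

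**Figure D3:**
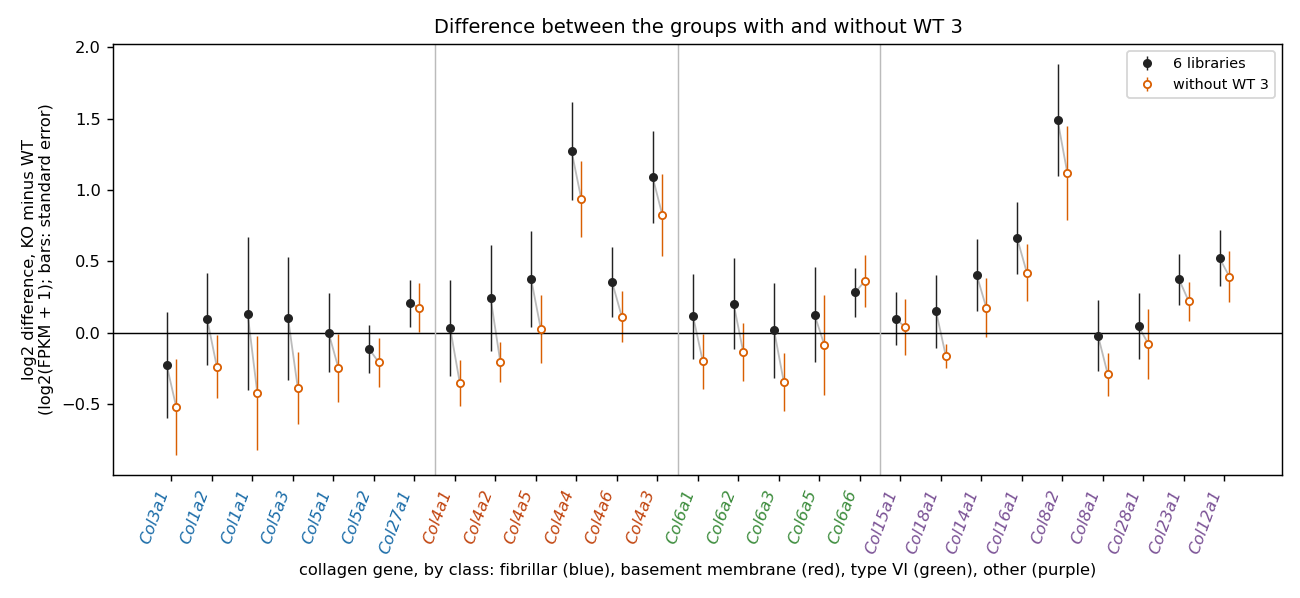
Log2 difference (libraries labelled KO minus WT, log2(FPKM + 1), bars are standard errors) of the 27 tested collagen genes from all 6 libraries (black) and without WT 3 (open, orange). The differences of 3 fibrillar and 4 type VI genes turn negative when WT 3 is left out, while those of Col4a3, Col4a4 and Col8a2 are then 0.82, 0.94 and 1.12.

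Fibrillar chains showed no difference between the groups beyond the spread within them. Col1a1, the major chain of type I, had 117, 107.7 and 34.7 FPKM in WT 1 to WT 3 and 56.5, 70.3 and 146.5 FPKM in KO 1 to KO 3. Its lowest library was WT 3 and its highest KO 3, while KO 1 and KO 2 lay under WT 1 and WT 2. The log2 difference was 0.13 (standard error 0.54), or -0.42 (standard error 0.40) without WT 3. Col1a2, its partner chain, had 194.5, 196.4 and 96.9 FPKM in WT and 131, 157 and 221 FPKM in the libraries labelled KO, in the order of their numbers. Col3a1, which forms thinner fibrils together with type I, had 482, 497 and 263 FPKM in WT against 251, 287 and 547 FPKM. In all of these the groups overlapped, with KO 3 highest.

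The type V chains, which seed fibrils, were similar. Col5a3, the most abundant of them here, had 104, 70.5 and 30.4 FPKM in WT and 61.9, 52.6 and 85.4 FPKM in the libraries labelled KO. WT 1 was its highest and WT 3 its lowest library. Col5a1 (27.3 ± 7.53 against 27.4 ± 8.64 FPKM, WT against KO, SD, n = 3) and Col5a2 (27.2 ± 3.12 against 25.3 ± 5.43 FPKM) had nearly equal means. Col27a1, a minor fibrillar chain, had 0.959 to 1.22 FPKM in WT and 1.12 to 1.62 FPKM in the libraries labelled KO. Adjusted p-values of the 7 genes by limma lay between 0.599 for Col27a1 and 0.999 for Col5a1. Without WT 3, Col27a1 was the 1 of the 7 with a positive difference (0.18), and the others lay between -0.52 for Col3a1 and -0.21 for Col5a2.

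Basement membrane chains differed from each other in level and in their order over the libraries. Col4a1 and Col4a2 encode the chains of the common network found in nearly every basement membrane. Col4a1 had 317, 287.7 and 134.7 FPKM in WT and 205.6, 223.5 and 288 FPKM in the libraries labelled KO. Col4a2 had 157, 141 and 58.1 FPKM in WT and 112.9, 126 and 150.7 FPKM in the libraries labelled KO. WT 3 lay below all others in both, at 44.5% and 39% of the mean of WT 1 and WT 2. The log2 difference was 0.04 for Col4a1 and 0.24 for Col4a2, and without WT 3 it was -0.35 (limma adjusted p = 0.395) and -0.20 (limma adjusted p = 0.555).

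Col4a3 and Col4a4, chains of the specialised network under certain epithelia such as that of the kidney, had higher values in the libraries labelled KO. Col4a3 had 1.83, 0.54 and 0.195 FPKM in WT 1 to WT 3 and 2.45, 3.25 and 2.45 FPKM in KO 1 to KO 3. Col4a4 had 2.85, 1.39 and 0.512 FPKM in WT and 4.802, 6.08 and 3.75 FPKM in the libraries labelled KO. The groups did not overlap in either, and WT 1 was the WT library nearest to the KO libraries. The log2 difference was 1.09 for Col4a3 (standard error 0.32, limma adjusted p = 0.225) and 1.27 for Col4a4 (standard error 0.34, limma adjusted p = 0.223). Without WT 3 they were 0.82 and 0.94 (limma adjusted p = 0.349 for each). Without WT 1 both passed, at 1.45 (limma adjusted p = 0.0206) and 1.61 (limma adjusted p = 0.0312), a threshold that 3.74% of all tested genes passed with higher values in that setting.

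The remaining chains, Col4a5 and Col4a6, lie side by side on the X chromosome, with 5' ends 1309 nt apart. Col4a5, which joins Col4a3 and Col4a4 in their network, had 7.60, 10.02 and 3.70 FPKM in WT and 7.003, 8.30 and 12.1 FPKM in the libraries labelled KO. Col4a6 had 2.05, 2.74 and 1.04 FPKM against 2.12, 2.87 and 3.04 FPKM. The groups overlapped in both genes. Their log2 differences of 0.38 and 0.36 shrank to 0.03 and 0.11 without WT 3. Thus Col4a5 did not show the gap between the groups that its network partners showed.

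Each type IV pair is a pair of neighbours in the genome. The 5' ends of Col4a1 (chr8:11198423-11312826, minus strand) and Col4a2 (chr8:11312805-11449287, plus strand) are 21 nt apart in GENCODE vM21 on GRCm38. The gene bodies overlap by 22 nt, in which reads cannot be assigned without strand. Those of Col4a3 (chr1:82586921-82722059, plus strand) and Col4a4 (chr1:82448423-82586849, minus strand) are 72 nt apart. Within each pair the log2 differences were 0.04 and 0.24, 1.09 and 1.27, and 0.38 and 0.36. Col3a1 and Col5a2, neighbours with 5' ends 191744 nt apart, had -0.22 and -0.11.

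Summed markers of epithelium, like Col4a3 and Col4a4, were higher in every library labelled KO than in every WT library. Within the groups their levels differed from those of the collagen genes. The 8 listed markers of tubule epithelium, among them the adhesion gene Cdh1, the kidney and duct factor Pax8 and the epithelial factor Elf3, summed to 37.7, 1.44 and 1.45 FPKM in WT 1 to WT 3. They summed to 86.6, 94.4 and 46.0 FPKM in KO 1 to KO 3. All 7 tested had higher means in the libraries labelled KO, 6 of them at an unadjusted limma p under 0.05. The exception was Krt7, in which the groups overlapped (log2 difference 0.29, limma adjusted p = 0.57). Over all tested genes 9.13% had higher values at an unadjusted limma p under 0.05. The marker lists were chosen with earlier results of these data known, so these counts are a description and no independent support. Esrp1 and Krt7 had WT means of 0.514 and 0.833 FPKM and passed the filter of 1 FPKM through the libraries labelled KO. The 8 markers of multiciliated cells summed to 30.2, 0.778 and 0.924 FPKM in WT and 84.2, 85.1 and 37.9 FPKM in the libraries labelled KO. Elf3, Foxj1, Dnah9, Dnah5 and Grhl2 were listed at 0 in WT 3, and Cldn7, Dnah5 and Grhl2 in WT 2. The summed tubule markers of WT 2 and WT 3 reached 1.91% and 1.92% of the KO mean, while Col4a3 reached 19.9% and 7.18% and Col4a4 28.5% and 10.5%. Single markers varied: Krt7 reached 74.6% and 56.3%, and Esrp1 4.81% and 12.1%. In KO 1 to KO 3 the summed tubule markers stood at 114.4%, 124.8% and 60.8% of the KO mean. Col4a3 stood at 90.3%, 119.6% and 90.2%, and Col4a4 at 98.4%, 124.7% and 76.9%. The part of epithelium in the result was not tested.

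**Figure D4:**
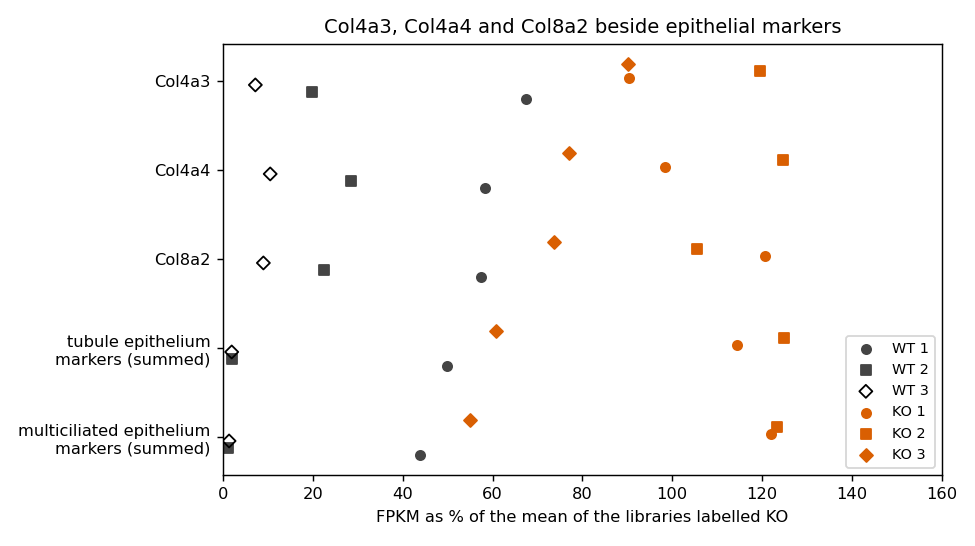
FPKM of Col4a3, Col4a4 and Col8a2, and the summed FPKM of 8 tubule epithelium and 8 multiciliated cell markers, as % of the KO mean; black marks are WT, with WT 3 open, and orange marks KO. In all 5 rows WT 1 is the highest WT library (43.8% to 67.5%), and WT 2 and WT 3 lie between 1.13% and 1.92% for the marker sums and between 7.18% and 28.5% for the collagen genes.

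The most abundant type VI chains were low in WT 3, and none differed between the groups by more than the spread within them. Col6a1 had 126, 114 and 61.9 FPKM in WT and 89.9, 93.7 and 134.7 FPKM in the libraries labelled KO, and Col6a2 had 109.7, 103.8 and 52.0 FPKM against 83.6, 84.9 and 128 FPKM. These chains assemble with the larger chain of Col6a3, which had 44.3, 34.1 and 17.8 FPKM in WT and 26.6, 27.1 and 39.0 FPKM in the libraries labelled KO. WT 3 was lowest in all of them and KO 3 lay above KO 1 and KO 2. Adjusted p-values by limma were 0.877, 0.789 and 0.985. The log2 differences of 0.11, 0.20 and 0.02 became -0.20, -0.14 and -0.34 without WT 3.

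Col6a5 and Col6a6 encode chains that can take the place of the Col6a3 chain. Col6a5 had 24.9, 29.7 and 17.2 FPKM in WT and 16.9, 24.1 and 40.9 FPKM in the libraries labelled KO. Col6a6 had 4.63, 5.59 and 6.19 FPKM in WT and 5.33, 8.09 and 7.35 FPKM. It was the only tested collagen gene in which WT 3 was the highest WT library, and its log2 difference was 0.28, or 0.36 without WT 3 (limma adjusted p = 0.438). The share of type VI in the summed collagen FPKM was 15.9%, 15.7% and 16.3% in WT and 17.2%, 17.1% and 16.8% in the libraries labelled KO. The groups did not overlap in this share, but they did in the shares of the other classes and in the summed type VI FPKM. The difference in share was not tested.

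Among the other types, Col8a2 had the largest difference of all collagen genes. Col8a2 encodes a chain of type VIII, a short-chain network collagen of vessel walls and of the corneal basement membrane. It had 3.79, 1.48 and 0.592 FPKM in WT 1 to WT 3 and 7.96, 6.97 and 4.87 FPKM in KO 1 to KO 3. Every library labelled KO was above every WT library, and the ratio of the means was 3.38. The log2 difference was 1.49 (standard error 0.39, limma adjusted p = 0.223), without WT 3 it was 1.12 (limma adjusted p = 0.349) and without WT 1 1.91 (limma adjusted p = 0.0193). Without WT 1, 3.74% of all tested genes passed the threshold with higher values. WT 1 was again the highest WT library, at 57.4% of the KO mean, followed by WT 2 at 22.4% and WT 3 at 8.97%. Col8a1, which encodes the other type VIII chain, did not follow: it had 4.33, 4.87 and 2.19 FPKM in WT and 4.06, 2.94 and 3.79 FPKM. Without WT 3 its log2 difference was -0.29 (limma adjusted p = 0.436).

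Fibril-associated collagens sit on the surface of fibrils and link them to other matrix. Of this set 9 were in the table and 3 were tested, all with higher means in the libraries labelled KO with and without WT 3. Col16a1 had 4.87, 5.73 and 2.81 FPKM in WT and 9.05, 7.97 and 5.62 FPKM in the libraries labelled KO (log2 difference 0.66, limma adjusted p = 0.322). KO 3 lay just under WT 2, so the groups overlapped. Col12a1 had 0.851, 1.29 and 0.577 FPKM against 1.83, 1.42 and 1.89 FPKM, without overlap (0.52, limma adjusted p = 0.317). Col14a1 had 11.997, 19.8 and 9.15 FPKM against 18.4, 18.3 and 16.1 FPKM, with WT 2 highest (0.41, limma adjusted p = 0.514). With sample weights Col16a1 passed the threshold (limma adjusted p = 0.048) and Col12a1 and Col14a1 did not. In that setting 970 of all 12539 tested genes passed. Without WT 3 the 3 differences were 0.42, 0.39 and 0.18.

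The multiplexins Col15a1 and Col18a1 are collagens with sugar chains at the basement membrane, and Col18a1 is the source of endostatin. Col15a1 had 117, 89.8 and 90.6 FPKM in WT and 104, 87.3 and 128.6 FPKM in the libraries labelled KO. It was the abundant collagen least lowered in WT 3, at 87.5% of the mean of WT 1 and WT 2. Col18a1 had 37.3, 39.9 and 19.7 FPKM in WT against 36.7, 32.1 and 34.4 FPKM. Its log2 difference was 0.15, and -0.16 without WT 3 (limma adjusted p = 0.457). The transmembrane collagen Col23a1 had 1.83, 1.75 and 1.02 FPKM in WT and 1.98, 2.503 and 2.27 FPKM in the libraries labelled KO, without overlap (log2 difference 0.37, limma adjusted p = 0.429). Col28a1 had 1.37 to 2.26 FPKM in WT and 1.38 to 2.88 FPKM in the libraries labelled KO, a full overlap.

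The 17 collagen genes under the filter included the cartilage genes Col2a1, Col9a1, Col9a2, Col9a3, Col11a1 and Col11a2, which had at most 0.382 FPKM in any library. Col10a1, of hypertrophic cartilage, was listed at 0 in all 6. The skin genes Col7a1 and Col17a1 had 0.062 to 0.214 FPKM. Col20a1 was the highest of the 17, at 0.585 to 0.794 FPKM. Col13a1, a transmembrane collagen, had 0.433, 0.213 and 0.032 FPKM in WT and 0.464, 0.534 and 0.569 FPKM in the libraries labelled KO. In 4 of the 17 (Col13a1, Col25a1, Col26a1 and Col9a1) every library labelled KO stood above every WT library, and in 0 below. Over all 9290 genes under the filter these shares were 7.06% and 1.69%. Col26a1, a minor collagen, had 0.092 FPKM in WT 1 and was listed at 0 in the other WT libraries, against 0.313, 0.536 and 0.149 FPKM in KO 1 to KO 3. The rest were Col6a4, Col19a1, Col22a1 and Col24a1, with means of at most 0.105 FPKM. At this level few fragments lie behind a value, and no test was made.

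Ratios between chains within a library do not depend on a single scaling factor for that library. Col4a1 exceeded Col4a2 by 2.02, 2.04 and 2.32 times in WT and by 1.82, 1.77 and 1.91 times in the libraries labelled KO. The groups did not overlap, with or without WT 3. Col6a1 to Col6a2 was between 1.1 and 1.19 in WT and between 1.05 and 1.11 in the libraries labelled KO. The type I ratio of Col1a1 to Col1a2 was 0.601, 0.548 and 0.358 in WT and 0.431, 0.447 and 0.664 in the libraries labelled KO, lowest in WT 3 and highest in KO 3. Col3a1 exceeded Col1a1 by 7.57 times in WT 3 and by 3.73 to 4.62 times in the other 5. Col8a2 to Col8a1 was 0.875, 0.304 and 0.270 in WT and 1.96, 2.37 and 1.28 in the libraries labelled KO. No test was made on ratios.

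WT 3 was lower in collagens than in other genes of like length. Longer transcripts had lower values in WT 3: against the mean of the other 5 libraries, the median log2 difference was 0.42 over all tested genes under 2000 nt, -0.08 from 4000 to 6000 nt, -0.22 from 6000 to 8000 nt and -0.32 from 8000 to 12000 nt. The tested collagen transcripts ran from 4100 nt for Col6a1 to 11511 nt for Col12a1. Their medians in the same 3 ranges were -0.83 (12 genes), -0.87 (8 genes) and -0.62 (7 genes). By class the median was -1.14 in basement membrane, -0.82 in type VI, -0.64 in other and -0.58 in fibrillar chains. WT 3 was the lowest library for 81.5% of the tested collagen genes, 47.3% of all tested genes from 4000 to 12000 nt and 27% of all tested genes. The exceptions were Col3a1, Col5a2, Col6a5, Col15a1 and Col6a6. After a correction for length and GC content, 16 of the 27 collagen genes had lower values in the libraries labelled KO, among them all 7 fibrillar genes (median -0.16). Of all 12539 tested genes 8315 were lower after this correction. The median was -0.09 over all tested genes and -0.03 over the collagen genes.

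**Figure D5:**
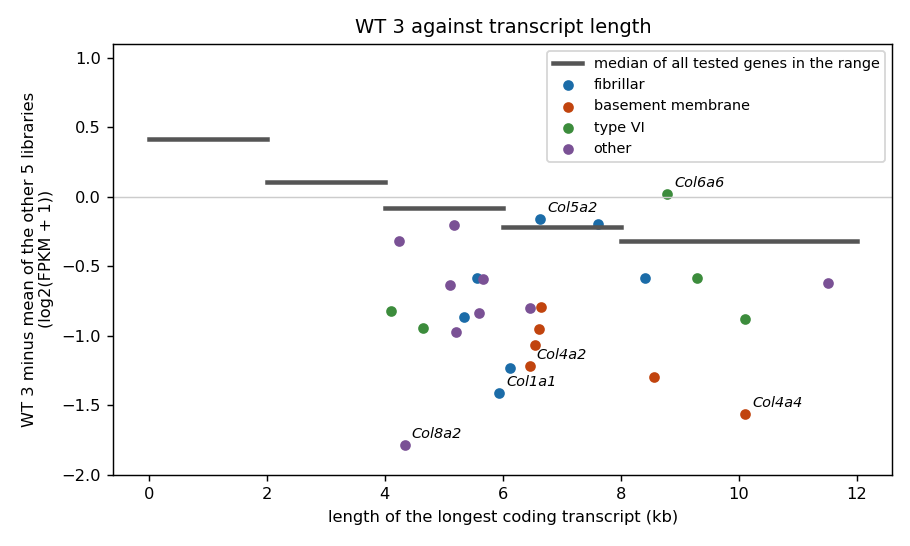
WT 3 minus the mean of the other 5 libraries (log2(FPKM + 1)) against the length of the longest coding transcript for the 27 tested collagen genes, with the median of all tested genes in each length range as bars. Most collagen points lie below the bar of their range, with Col8a2 (-1.79), Col4a4 (-1.57) and Col1a1 (-1.41) lowest and Col6a6 (0.02) highest.

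Markers of vessel cells differed in WT 3 as well. WT 3 was the lowest library for 7 of 8 endothelial and 8 of 8 mural cell markers. The endothelial markers summed to 188.8 FPKM in WT 3 and 336 to 495.6 FPKM in the other libraries. Mural markers summed to 123.9 FPKM in WT 3 and 249.6 to 482 FPKM elsewhere. Of 8 endothelial markers 5 had higher means in the libraries labelled KO, and 0 without WT 3 (median log2 difference 0.06, then -0.32). Of 8 mural markers 7 were higher, and 3 without WT 3 (median 0.45, then -0.11). Over all tested genes the median was -0.05, and -0.03 without WT 3. WT 3 was lowest for 3 of the 8 fibroblast and progenitor markers, which summed to 453 FPKM in WT 3, within the 441 to 552.6 FPKM of the others. Adipocyte markers summed to 70073 FPKM in WT 3 against 26625 to 38055 FPKM. Cfd (33638 FPKM) and Fabp4 (23451 FPKM) made up most of the WT 3 sum. Adipoq, Cidec, Plin1 and Lep were also highest in WT 3. Lipe and Pnpla2 were not: Lipe had 959 FPKM, against 858 to 1078 FPKM in the other libraries, and Pnpla2 1426 FPKM, against 1098 to 1768 FPKM. Skeletal muscle markers were also highest in WT 3, 86.6 FPKM against 9.95 to 27.5 FPKM, with Ckm at 10.3 FPKM against at most 0.156 FPKM. The part of these cells in the collagen values, and of transcript length in the marker values, was not tested.

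KO 3 was not the highest library in the endothelial or fibroblast markers. Its endothelial sum was 336 FPKM, beside 356 and 341 FPKM in KO 1 and KO 2. Its fibroblast and progenitor sum was 441 FPKM, beside 457 and 469 FPKM. Ly6a made up much of that sum, and without it KO 3 had 232.7 FPKM, beside 227.9 and 217.7 FPKM. Macrophage markers summed to 946.5, 1356 and 1355 FPKM in WT and 877, 852.6 and 1179 FPKM in the libraries labelled KO. They were thus higher in KO 3 than in KO 1 and KO 2, and Cd68 had 70.8 FPKM there, beside 34.5 and 33.9 FPKM. Adipocyte markers too had their highest KO sum in KO 3, 32432 FPKM. The part of these cells in the values of KO 3 was not tested. Mesothelial markers, of the lining of visceral fat, differed by kind. Their 3 keratins, Krt8, Krt18 and Krt19, summed to 50.3, 14.8 and 7.55 FPKM in WT and 113.3, 114.6 and 58.3 FPKM in the libraries labelled KO. The other 5 summed to 48.4, 86.6 and 39.8 FPKM against 66.7, 30.7 and 58.1 FPKM, with overlap. Erythroid markers summed to 1303 to 3538 FPKM in WT and 505.6 to 1374 FPKM in the libraries labelled KO.

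Genes that fold, cut, bind and sense collagen were described from 5 lists. No gene of these lists passed the adjusted threshold in all 6 libraries. For comparison, over all tested genes 5112 were higher and 7427 lower (median log2 difference -0.05, and -0.03 without WT 3). The groups did not overlap in 10.1% of all tested genes with higher values and in 12.2% with lower values. The genes named below were among the 4 of their list with the smallest p by limma. Of 19 tested genes of folding and modification in the endoplasmic reticulum 6 were higher and 13 lower in the libraries labelled KO (median log2 difference -0.05, and -0.04 without WT 3). Serpinh1, the collagen chaperone HSP47, had 243.6, 229.6 and 228 FPKM in WT and 199, 176.7 and 215 FPKM in the libraries labelled KO, with no overlap (-0.25, limma adjusted p = 0.45). Its value in WT 3 lay above those of all 3 libraries labelled KO. Plod2, a lysyl hydroxylase, had 6.41, 7.78 and 4.36 FPKM in WT and 6.87 to 7.38 FPKM in the libraries labelled KO. Of 10 tested genes of procollagen cleavage and crosslinking 5 were higher and 5 lower (median -0.01, and -0.13 without WT 3). Bmp1, which removes the C-terminal propeptide, had 19.3 to 22.6 FPKM in WT and 23.5 to 24.7 FPKM in the libraries labelled KO (limma adjusted p = 0.513). Loxl3, of the same list, had 3.52 to 4.09 FPKM in WT and 2.75 to 3.30 FPKM in the libraries labelled KO (-0.24, limma adjusted p = 0.453). The groups did not overlap in Bmp1 or Loxl3.

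Of 17 collagen-binding proteoglycans and fibril partners 11 were higher and 6 lower (median 0.06, and 0.04 without WT 3). Prelp, which ties collagen to basement membranes, had 146, 169.6 and 113.6 FPKM in WT and 299.5, 260 and 174.6 FPKM in the libraries labelled KO (0.75, limma adjusted p = 0.252). Aspn, a small proteoglycan that binds type I, had 10.1 to 16.1 FPKM in WT and 19.0 to 21.9 FPKM in the libraries labelled KO (0.64, limma adjusted p = 0.223). Neither overlapped between the groups, which held for 10.1% of all tested genes with higher values. Dcn, which coats fibrils, was highest in WT 3 at 1156 FPKM, against 722 to 1023 FPKM in the other libraries. It thus went the opposite way to the fibrillar chains in that library. The tested fibrillar transcripts have 5348 to 8406 nt, lengths at which genes had lower values in WT 3. The part of transcript length in this contrast was not tested.

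Of 15 tested laminins and other basement membrane partners 11 were higher and 4 lower (median 0.17, and 0.06 without WT 3). Agrn, a heparan sulfate proteoglycan, had 13.1, 11.9 and 8.66 FPKM in WT and 20.0, 18.9 and 14.1 FPKM in the libraries labelled KO (0.61, limma adjusted p = 0.235). Npnt, an integrin ligand, had 0.545 to 2.81 FPKM in WT and 3.85 to 4.23 FPKM in the libraries labelled KO (0.92, limma adjusted p = 0.298). The groups did not overlap in Agrn or Npnt, as in 10.1% of all tested genes with higher values.

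Of 10 tested collagen receptors 7 were higher and 3 lower (median 0.06, and -0.01 without WT 3). Ddr1, the discoidin domain receptor of epithelial cells, had 24.6, 15.6 and 15.9 FPKM in WT and 43.3, 40.8 and 27.7 FPKM in the libraries labelled KO (0.96, limma adjusted p = 0.223). Without WT 1, its highest WT library, it passed the threshold (limma adjusted p = 0.0409), as did 3.74% of all tested genes with higher values. Ddr2, its counterpart in fibroblasts, had 32.2, 43.2 and 33.9 FPKM in WT and 32.9, 31.7 and 30.0 FPKM. The groups overlapped in Ddr2, and its log2 difference was -0.19.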

How the data were processed

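RNA from 3 WT libraries and 3 libraries labelled ZFP251 KO was analysed. The submitters' processing notes name STAR 2.5.4, Cufflinks, Cuffdiff 2.2.1 and the build mm10. The values the authors deposited were read as FPKM, 1 column per library. This was inferred from the tools and the values, since no header names the unit. The sources used here do not state the annotation, strand setting, filters or library scaling. Total depth is unknown, and intervals for counting error could not be given. Relative to WT 1, the smallest common step of low values put depth at 0.79 in WT 2, 0.824 in KO 1, 0.651 in KO 2 and 0.946 in KO 3. In WT 3 only 11.2% of low genes lay at the step, and no depth was taken.

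The table had 21853 rows. Where symbols repeated (24 rows), only the highest by mean stayed. A mean of at least 1 FPKM was required, which left 12539 genes. Their log2(FPKM + 1) values were compared by group alone in limma 3.58.1 (R 4.3.3), with a mean-variance trend and Benjamini-Hochberg adjustment over these genes. The fit was checked on simulated data. GENCODE vM21 (GRCm38) gave gene positions and the length of the longest coding transcript. Collagen genes above the filter could all be named, as could up to 4 genes of each partner list by smallest p and up to 3 of each marker list. Markers listed at 0, other markers beyond 3, splits of marker lists and the values by library of genes under the filter were added after they were seen. The members, classes, partner lists and marker lists were chosen with earlier results of these data known. Alternatives were pseudocounts of 0.1 and 0.5, no filter or a mean of 5 FPKM, median-ratio scaling, quantile normalization, a length and GC correction, no trend, sample weights, each library left out and the replicate number as a block.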

Additional observations from a re-analysis of the deposited data

How the results depend on the processing

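With sample weights 1 collagen gene passed the adjusted threshold, Col16a1, and with a library left out between 0 and 3 passed, the 3 without WT 1. Of all 12539 tested genes 970 passed with sample weights and 482 without WT 1. Of the 27 tested genes 10 had 1 sign in every setting that tested them. They were Col12a1, Col14a1, Col16a1, Col23a1, Col4a3, Col4a4, Col4a6, Col5a2, Col6a6 and Col8a2. Col5a2 had lower values in the libraries labelled KO, and the others had higher values. The count at an unadjusted p under 0.05, 5 at first, was 1 at a mean of at least 5 FPKM, 3 after the length and GC correction, 12 with sample weights (6 higher, 6 lower) and 3 to 6 when libraries were left out singly. Over all 12539 tested genes this count was 1700 at first and 3914 with sample weights. The fibrillar median was -0.40 with sample weights and -0.35 with the length and GC correction without WT 3. That combined setting was chosen after the data were seen. The median of other chains was 0.10 with no filter on low values. Zfp251 passed with sample weights (0.64, limma adjusted p = 0.0367) and without WT 1, and its log2 difference was between 0.65 and 0.78 with a library left out.

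After the length and GC correction the sign turned in Col15a1 (-0.078), Col18a1 (-0.089), Col1a1 (-0.089), Col1a2 (-0.073), Col27a1 (-0.054), Col28a1 (-0.012), Col4a1 (-0.19), Col4a2 (-0.0095), Col5a3 (-0.16), Col6a1 (-0.037), Col6a3 (-0.22) and Col6a5 (-0.029). With sample weights it turned in Col15a1 (-0.15), Col18a1 (-0.068), Col1a1 (-0.69), Col1a2 (-0.36), Col28a1 (-0.14), Col4a1 (-0.47), Col4a2 (-0.31), Col5a3 (-0.63), Col6a1 (-0.34), Col6a2 (-0.26), Col6a3 (-0.56) and Col6a5 (-0.23). With that correction and without WT 3 it turned in Col15a1 (-0.045), Col18a1 (-0.28), Col1a1 (-0.52), Col1a2 (-0.32), Col28a1 (-0.11), Col4a1 (-0.44), Col4a2 (-0.32), Col4a5 (-0.017), Col5a3 (-0.51), Col6a1 (-0.29), Col6a2 (-0.22), Col6a3 (-0.43) and Col6a5 (-0.12). With quantile normalization it turned in Col27a1 (-0.20), Col28a1 (-0.27), Col3a1 (0.048) and Col5a1 (0.0605). With median-ratio scaling it turned in Col5a1 (0.049) and Col8a1 (0.016). With a library left out the sign turned in Col15a1 (-0.044 to 0.23), Col18a1 (-0.16 to 0.33), Col1a1 (-0.42 to 0.44), Col1a2 (-0.24 to 0.27), Col28a1 (-0.17 to 0.19), Col4a1 (-0.35 to 0.26), Col4a2 (-0.20 to 0.50), Col5a1 (-0.24 to 0.15), Col5a3 (-0.39 to 0.48), Col6a1 (-0.20 to 0.31), Col6a2 (-0.14 to 0.39), Col6a3 (-0.34 to 0.29), Col6a5 (-0.20 to 0.41) and Col8a1 (-0.29 to 0.15), with lowest and highest values in brackets.

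With the replicate number as a block 0 collagen genes passed and 4 had an unadjusted p under 0.05. Same-numbered libraries did not deviate together in every pair (Pearson r across genes 0.23, -0.20 and 0.22), so the numbers were not taken as pairs. The cause of each change with the setting was not tested. With 3 libraries a group and unknown depth, small differences in the abundant chains could not be resolved.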

Other observations

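Of the collagen genes under the filter, 2 had higher values in 1 or 2 libraries than in the rest. Col24a1, a fibrillar collagen of bone and cornea, had 0.543 FPKM in WT 2 and at most 0.037 FPKM in the other 5 libraries. Col22a1, found at muscle and tendon junctions, had 0.271 FPKM in WT 1 and 0.167 FPKM in KO 2, against at most 0.021 FPKM elsewhere. WT 3, which had the highest sum of skeletal muscle markers, listed Col22a1 at 0. These genes were chosen after their values were seen.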
